A study of Homo sapiens with 6 samples.

Results

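Among the 60748 genes counted by RNA sequencing in LX-2 cells, an established line of human hepatic stellate cells, the 10 examined here were the EGR genes EGR1, EGR2 and EGR3, the FOS genes FOS, FOSB, FOSL1 and FOSL2, and the JUN genes JUN, JUNB and JUND. They were chosen by gene symbol as the immediate early EGR and AP-1 transcription factors, and all 10 passed the filter on low counts. The study compared cells that overexpress fibroblast activation protein α (LX-2FAP, 3 libraries) with cells that carry the empty vector (LX-2Vector, 3 libraries), both cultured for 24 h in DMEM with serum and with no acute stimulus named in the labels. Both lines were made with a lentiviral vector with a ubiquitin promoter that also carries EGFP and puromycin resistance, so selection with puromycin and the vector were shared by the 2 groups. The study speaks of stable clones and does not say how many were used, and nothing in the labels says that the replicates of a group were separate cultures. In its model EGR1 lies downstream of FGFR1 and ERK and binds the promoter of FAP. Part of its evidence came from xenografts, where blocking FGF2 or FGFR1 lowered EGR1 and FAP protein in stellate cells. Other evidence came from LX-2 cells given tumor cell conditioned medium. There the study measured EGR1 protein and promoter binding, knocked down EGR1, FGF2 or FGFR1, and inhibited FGFR1 or ERK. The comparison here is of RNA, with no such medium named in the labels, between lines with and without FAP driven by the vector. A difference between clones and an effect of FAP cannot be told apart in this design.

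Immediate early genes are transcribed within minutes of a growth factor or stress signal, without new protein synthesis, and their transcripts decay quickly. ERK phosphorylates ternary complex factors such as ELK1, which act with serum response factor at CArG boxes in the promoters of EGR1 and FOS. EGR proteins are zinc-finger factors that bind GC-rich sites, whereas FOS and JUN proteins pair through leucine zippers to form AP-1, and in stellate cells AP-1 is known for its part in activation and in the expression of matrix proteases.

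The total count was 17355700 to 26352060 reads per library. FAP, which checks the labels, had 42 to 55 reads in the LX-2Vector libraries and 14805 to 15160 in the LX-2FAP libraries, a log2 fold change of 8.33 (SE 0.13, edgeR quasi-likelihood test, adjusted p = 4.47e-16), and these reads do not separate the transgene from the endogenous gene. The summed level of 11 stellate cell or myofibroblast markers was 2287 to 2423 CPM (counts scaled to a common library size) in LX-2Vector and 2332 to 2467 in LX-2FAP, with LRAT, which makes stored retinyl esters, listed at 0 in every library and DES under 1 CPM. Of the 8 that were tested, COL1A1, COL3A1 and PDGFRB were called lower and VIM higher, where 5.29% of all tested genes were called. Markers of other cells had lower sums in both groups, but some were detected (values for LX-2Vector, then LX-2FAP). The 5 hepatocyte markers summed to 12.9 to 14.8 and 10.4 to 11.6 CPM, nearly all of it SERPINA1 (means 13.3 and 10.96). TTR was at 0, and ALB, APOA1 and HNF4A were under 1 CPM. The 3 endothelial markers summed to 6.44 to 8.04 and 5.00 to 6.49 CPM, with CDH5 under 1 CPM and VWF called lower. The 3 leukocyte markers summed to 7.95 to 11.7 and 9.60 to 13.6 CPM. The 3 epithelial markers summed to 0.705 to 1.25 and 0.778 to 0.918 CPM. PECAM1 (means 4.25 and 4.36 CPM), LYZ (4.64 and 6.32) and PTPRC (5.39 and 5.35) were detected too. Each lay above the stellate cell markers ACTA2 (3.82 and 2.94) and COL1A2 (1.165 and 1.055). The part of other cells in the values below was not tested, and in such bulk samples, fewer cells with a transcript and less of it per cell cannot be told apart.

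EGR1 and JUNB were lower in LX-2FAP than in LX-2Vector cells, at 73.8% and 74.8% of the vector line, and they were the only 2 of the 10 genes to pass the test. JUND and FOSL2 had log2 fold changes of -0.37 and -0.15, and FOSL1, the most abundant of the 10 per length, had one of 0.14, all short of the threshold. The fitted values of JUN, FOS and FOSB lay between -0.04 and -0.01. EGR2 and EGR3 had at most 36 reads in any library.

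**Figure D1:**
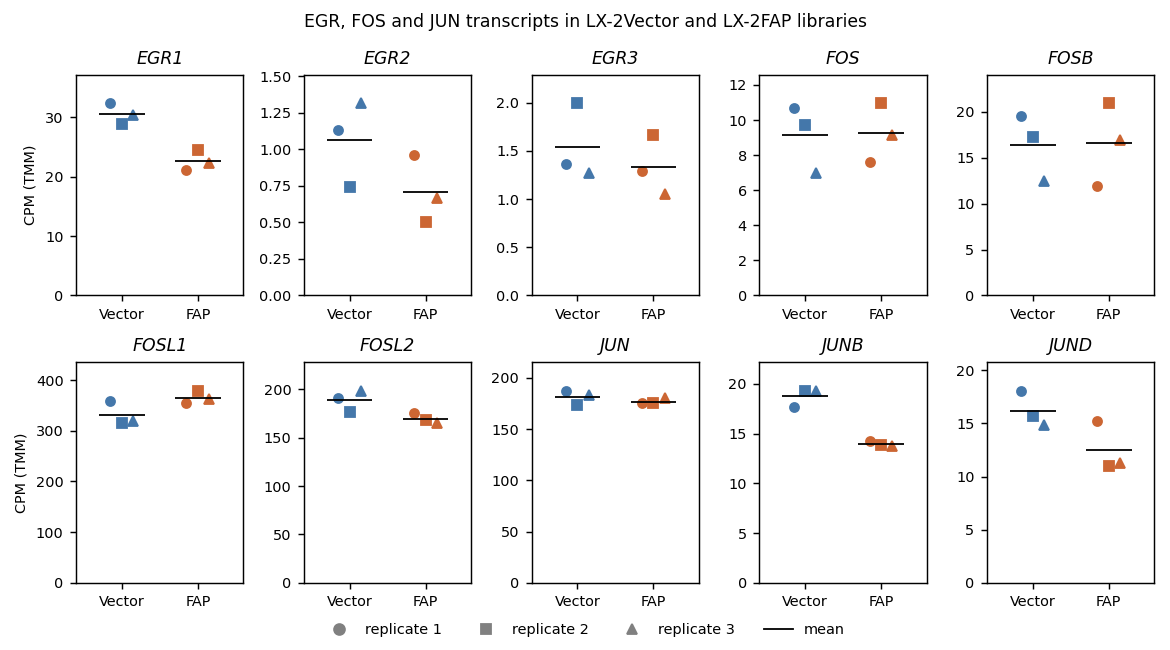
Transcript level of each of the 10 genes in CPM (TMM-normalized, linear axes that start at 0) in the 3 LX-2Vector and the 3 LX-2FAP libraries, with 1 point per library, marked by replicate number, and a bar at the group mean. The groups are apart for EGR1, JUNB and FOSL2 and overlap for the other 7 genes.

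Calls were made with edgeR's quasi-likelihood test where the p-value, adjusted over all 18275 genes tested, was under 0.05. Of the 10 genes, 2 were called, both lower, where 5.29% of all tested genes were called in either direction, 2.73% lower and 2.57% higher. The fitted log2 fold change was negative for 9 genes and positive for 1, with a median of -0.17, beside a median of -0.01 over all tested genes, of which 9685 were negative and 8590 positive. The groups did not overlap for 3 genes (EGR1, FOSL2 and JUNB), all of them lower. Over all tested genes they did not overlap for 26.4% in either direction and for 13.4% in the lower direction. A cutoff on size, more than 1.2-fold in either direction at an unadjusted p under 0.05, was passed by 3 genes (EGR1, JUNB and JUND), all lower, and by 7.89% of tested genes, 6.44% lower and 1.45% higher. An unadjusted p under 0.05 was reached by 5 of the 10, beside 22.2% of tested genes. The 2 calls depended on the libraries and the tool, as did the number of genes called in all. With LX-2FAP replicate 3 left out, edgeR called 0 of the 10 (5 had an unadjusted p under 0.05) and only 26 genes in all. Limma on FPKM values called 0 of the 10 with all libraries (4 had an unadjusted p under 0.05) and only 2 genes in all. DESeq2 called 2 of the 10, EGR1 and JUNB, and 1031 genes in all.

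The changes also moved with base composition. GC content was taken from the longest annotated transcript of each gene. Genes with a GC content of 60% or more, 2137 of the tested genes, had a median log2 fold change of -0.13, and 80.3% were negative. The 6972 genes under 45% GC had a median of 0.05, and 34.5% were negative. JUND (69.7% GC), JUNB (64.9%) and FOSL1 (60.04%) lay in the GC-rich class, and EGR1 had 55.4%. When the trend with GC content was taken out of the counts before the fit, an alternative chosen after the data were seen, EGR1 was still called (log2 fold change -0.35, adjusted p = 0.0165, edgeR), JUNB was not (-0.25, adjusted p = 0.0831), FOSL1 became a call in the higher direction (0.27, adjusted p = 0.00603), and 6 of the 10 genes were negative. In that fit 4.37% of all tested genes were called. The part of base composition in these changes was not tested further.

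**Figure D2:**
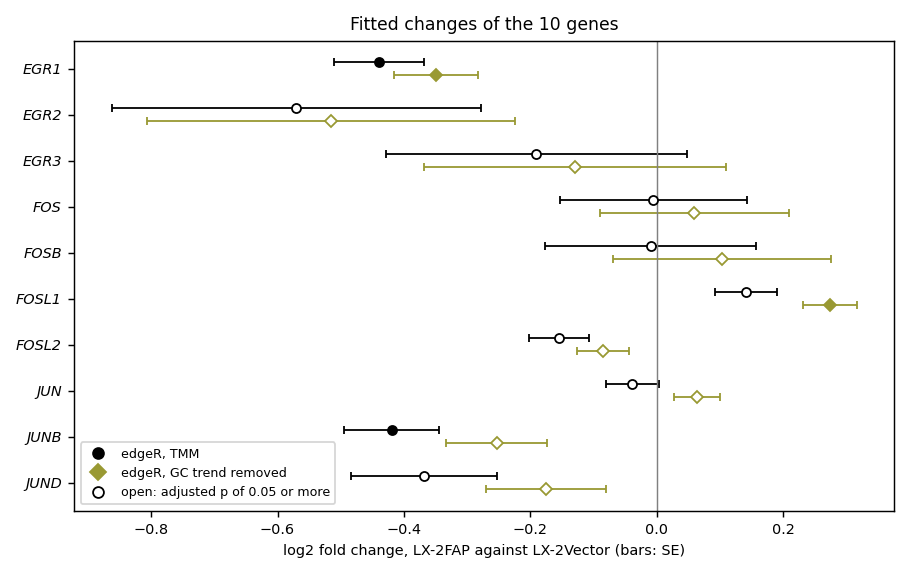
Fitted log2 fold change of each gene, LX-2FAP against LX-2Vector, with its standard error, from edgeR with TMM normalization (circles) and with the trend in GC content removed (diamonds); filled marks had an adjusted p under 0.05. Only EGR1 is filled in both fits, JUNB is filled in the first and FOSL1 in the second.

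EGR1 (ENSG00000120738) encodes a zinc-finger activator and is the EGR gene named in the study's model. It lies at chr5:138465490-138469315 on the plus strand (GRCh38, GENCODE release 29). Its reads numbered 854, 506 and 647 in LX-2Vector and 507, 440 and 468 in LX-2FAP. Normalized to library size, EGR1 stood at 32.3, 28.8 and 30.4 CPM in the vector line and at 21.2, 24.5 and 22.3 with FAP. Every LX-2FAP library was below every LX-2Vector library. The mean was 30.5 ± 1.75 CPM (SD, n = 3) in the vector line and 22.7 ± 1.68 CPM (n = 3) in LX-2FAP, and the latter was 73.8% of the former in the fit. The log2 fold change was -0.44 (SE 0.07, 95% interval -0.59 to -0.29, adjusted p = 0.00675, edgeR). With 1 library left out at a time it stayed between -0.49 and -0.39, and the call was lost without LX-2FAP replicate 3 (-0.43, adjusted p = 0.068).

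The region upstream of EGR1 is shown because it carries the letters of sites for serum response factor and for EGR proteins themselves, and those of JUNB and JUND because their fitted fold changes were the closest to that of EGR1 among the genes with over 100 counts. Each run covers 250 bases before to 50 bases after the RefSeq transcription start on the gene's own strand (GRCh38.p14). The windows lie at chr5:138465229-138465528 for EGR1 (plus strand), chr19:12791236-12791535 for JUNB (plus strand) and chr19:18281573-18281872 for JUND (minus strand). Capitals mark a match to the EGR motif GCGNGGGCG, the AP-1 motif TGANTCA, the CRE TGACGTCA or the CArG box, all searched on both strands.
EGR1 promoter: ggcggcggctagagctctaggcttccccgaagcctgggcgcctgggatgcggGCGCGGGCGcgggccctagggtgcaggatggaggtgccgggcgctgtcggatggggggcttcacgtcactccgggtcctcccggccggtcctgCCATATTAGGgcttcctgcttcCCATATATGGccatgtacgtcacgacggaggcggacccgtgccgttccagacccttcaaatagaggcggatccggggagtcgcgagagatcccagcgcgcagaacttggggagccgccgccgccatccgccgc
JUNB promoter: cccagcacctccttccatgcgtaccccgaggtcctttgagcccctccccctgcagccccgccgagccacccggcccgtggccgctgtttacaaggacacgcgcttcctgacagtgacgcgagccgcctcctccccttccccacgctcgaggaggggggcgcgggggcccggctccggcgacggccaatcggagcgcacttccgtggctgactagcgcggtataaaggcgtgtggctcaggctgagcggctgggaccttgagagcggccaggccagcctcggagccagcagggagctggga
JUND promoter: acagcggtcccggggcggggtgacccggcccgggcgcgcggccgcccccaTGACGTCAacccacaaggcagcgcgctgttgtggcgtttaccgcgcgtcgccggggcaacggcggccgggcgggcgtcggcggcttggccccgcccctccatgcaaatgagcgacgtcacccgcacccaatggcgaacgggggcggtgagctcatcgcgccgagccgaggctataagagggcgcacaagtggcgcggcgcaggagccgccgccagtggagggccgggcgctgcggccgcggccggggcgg
The EGR1 window held an EGR motif match at -198 to -190 and CArG box matches at -105 to -96 and -83 to -74, counted from the transcription start, and no 2 of these matches overlapped. The JUND window held a CRE match at -200 to -193, and the JUNB window held none of the 4 motifs. Windows were found for 8 of the 10 genes, EGR2 with 3, which makes 10 windows in all. The others with a match were FOSL2, with an AP-1 motif at 5 to 11, and EGR2, with an EGR motif in 1 window and a CArG box in another. The windows of FOS, FOSB and JUN held none of the 4 motifs. Sites more than 250 bases before the start were not searched, so a CArG box of FOS further upstream would be missed. Of 35116 RefSeq windows of the same length, 9.43% held the EGR motif, 7.71% the AP-1 motif, 1.85% the CRE and 1.29% the CArG box. These are matches of letters only.

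EGR2 and EGR3, relatives of EGR1 with near-identical DNA-binding domains, were barely detected. EGR2 (ENSG00000122877, chr10:62811996-62919900, minus strand) had 30, 13 and 28 reads in LX-2Vector and 23, 9 and 14 in LX-2FAP, or 1.14, 0.741 and 1.32 CPM against 0.96, 0.50 and 0.668 CPM. The highest LX-2FAP library lay above the lowest LX-2Vector library. The log2 fold change of EGR2 was -0.57, the most negative of the 10, with a 95% interval from -1.19 to 0.05 (adjusted p = 0.268, edgeR), so at this depth a fall as large as that of EGR1 could not be told from none. EGR3 (ENSG00000179388) had 36, 35 and 27 reads against 31, 30 and 22, or 1.54 ± 0.394 and 1.34 ± 0.311 CPM. Its log2 fold change was -0.19 with an interval from -0.70 to 0.32 (adjusted p = 0.698, edgeR), and the groups overlapped. EGR4, the last gene of the family, had a count of 0 in every library and was not detectable at this depth. The corepressors NAB1 and NAB2 bind EGR proteins, and NAB2 is itself induced by EGR1. NAB2 averaged 35.0 ± 1.204 CPM in the vector line and 31.3 ± 0.954 in LX-2FAP with no overlap, but was not called (log2 fold change -0.16, adjusted p = 0.108, edgeR), and its value was -0.01 with the GC trend removed. NAB1 was not called either (-0.09, adjusted p = 0.369, edgeR). Of these 2 genes, 0 were called by edgeR, 0 by DESeq2 and 0 by limma, and 1 had an unadjusted p under 0.05.

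The FOS proteins have no stable dimer with one another and bind DNA as partners of JUN proteins. FOSL1 (FRA-1, ENSG00000175592, chr11:65892049-65900573, minus strand) is a FOS protein without the transactivation domain of FOS and is often high in mesenchymal and transformed cells. Its level was 358, 314 and 320.0 CPM in the vector line, and 355, 379 and 362 CPM with FAP. LX-2Vector replicate 1, at 358 CPM, lay between the 2 lowest LX-2FAP libraries, and the other LX-2Vector libraries lay below all of them. The log2 fold change was 0.14 (SE 0.05, 95% interval 0.04 to 0.25, adjusted p = 0.0987, edgeR). It became a call without LX-2Vector replicate 1 (adjusted p = 0.0319). FOSL2 (FRA-2, ENSG00000075426, chr2:28392448-28417312, plus strand), the other FOS-related antigen, had a fold change of the opposite sign. The LX-2Vector libraries had 191, 177 and 199 CPM, the LX-2FAP libraries 175, 169 and 165. The groups did not overlap, yet the log2 fold change of -0.15 (SE 0.05, 95% interval -0.26 to -0.05) missed the threshold (adjusted p = 0.067, edgeR). It passed when LX-2Vector replicate 2 (adjusted p = 0.0476) or LX-2FAP replicate 1 (adjusted p = 0.0377) was left out, and stood at -0.08 with the GC trend removed.

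FOS (ENSG00000170345, chr14:75278774-75282230, plus strand), the classic AP-1 subunit and a gene with a very short-lived transcript, had 283, 171 and 149 reads in LX-2Vector and 183, 197 and 192 in LX-2FAP. In CPM these were 10.7, 9.74 and 7.01 against 7.63, 11.0 and 9.17. The groups overlapped throughout, and the highest library was LX-2FAP replicate 2 and the lowest LX-2Vector replicate 3. FOSB (ENSG00000125740, chr19:45467995-45475179, plus strand), its closest relative, had 19.6, 17.2 and 12.5 CPM against 11.9, 20.9 and 16.9 CPM. The log2 fold change was -0.01 for FOS (95% interval -0.32 to 0.31, adjusted p = 0.99, edgeR) and -0.01 for FOSB (-0.36 to 0.35, adjusted p = 0.984), and the sign of both turned positive with the GC trend removed (0.06 and 0.10). These intervals do not exclude a change of the size seen for FOSL2 in either direction. The highest library of the 6 was 1.56-fold above the lowest for FOS and 1.75-fold for FOSB, against 1.08-fold for JUN.

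JUN (ENSG00000177606, chr1:58780788-58784327, minus strand), which can bind DNA with itself or with a FOS protein, varied by 1.08-fold over all 6 libraries. In LX-2Vector it stood at 188, 174 and 183 CPM, and in LX-2FAP at 176, 175 and 180.3, with the LX-2FAP libraries inside the range of the LX-2Vector libraries. The log2 fold change was -0.04 (SE 0.04, 95% interval -0.13 to 0.05, adjusted p = 0.644, edgeR) and 0.06 with the GC trend removed. JUNB (ENSG00000171223, chr19:12791496-12793315, plus strand), a weaker activator that can oppose JUN, had 467, 339 and 411 reads in LX-2Vector and 342, 250 and 289 in LX-2FAP. Its level was 17.7, 19.3 and 19.3 CPM against 14.3, 13.9 and 13.8 CPM. The LX-2FAP libraries lay within 1 CPM of each other and below every LX-2Vector library. The mean fell from 18.8 ± 0.949 to 13.99 ± 0.248 CPM (SD, n = 3 each), with a log2 fold change of -0.42 (SE 0.08, 95% interval -0.58 to -0.26, adjusted p = 0.00823, edgeR), and LX-2FAP stood at 74.8% of LX-2Vector. The call was lost without LX-2FAP replicate 3 (-0.41, adjusted p = 0.0748) and with the GC trend removed. The count of JUNB is uncertain, since 14.2% of its exon bases overlap exons of HOOK2 on the opposite strand and the use of strand in counting was not given in the sources used here. HOOK2, a linker between organelles and microtubules, averaged 21.9 ± 1.23 CPM in the vector line and 16.7 ± 1.59 with FAP (log2 fold change -0.38, adjusted p = 0.0175, edgeR), and like JUNB it was not called with the GC trend removed (-0.24, adjusted p = 0.105). How far either shared the other's reads was not tested.

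JUND (ENSG00000130522, chr19:18279760-18281622, minus strand), the JUN gene that is usually expressed at a constant level and can slow growth, had 478, 275 and 315 reads in LX-2Vector and 365, 197 and 237 in LX-2FAP. In CPM this was 18.1, 15.7 and 14.8 against 15.2, 11.0 and 11.3. The groups overlapped, since LX-2FAP replicate 1, at 15.2 CPM, lay above LX-2Vector replicate 3, at 14.8 CPM. The log2 fold change of -0.37 (SE 0.12, 95% interval -0.61 to -0.12) was close to that of JUNB but missed the threshold (adjusted p = 0.0727, edgeR). Without LX-2FAP replicate 1 it was -0.54 and passed (adjusted p = 0.00406), and with the GC trend removed it was -0.18 (adjusted p = 0.305). JUND has the highest GC content of the 10, and at 65% GC or more 84.2% of 468 tested genes had a negative log2 fold change, with a median of -0.16.

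Levels can be compared between genes only per length, so the deposited FPKM values were used for this. In LX-2Vector the mean level was 177 ± 11.99 FPKM (SD, n = 3) for FOSL1, 50.5 ± 1.77 for JUN and 26.6 ± 1.55 for FOSL2, and these 3 differed beyond their spread. JUNB (10.3 ± 0.567 FPKM), EGR1 (9.80 ± 0.519) and JUND (8.46 ± 0.853) followed, and each overlapped its neighbour in this order. FOSB (2.98 ± 0.648 FPKM) and FOS (2.89 ± 0.601) overlapped as well, and EGR3 (0.309 ± 0.0799) and EGR2 (0.264 ± 0.0728) were the lowest and overlapped. The order by mean was the same in LX-2FAP. FOSL1 was thus 3.35 to 3.67 times as high as JUN in the 3 LX-2Vector libraries. It made up 84.5% ± 0.469 of the summed FPKM of the 4 FOS genes in LX-2Vector and 86.8% ± 0.127 in LX-2FAP, while FOS itself made up 1.38% ± 0.253 and 1.30% ± 0.191. EGR1 held 94.5% ± 0.431 of the summed FPKM of the 3 EGR genes in LX-2Vector and 94.2% ± 0.946 in LX-2FAP, so that the EGR sum, 10.4 ± 0.502 and 7.57 ± 0.509 FPKM, followed EGR1.

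**Figure D3:**
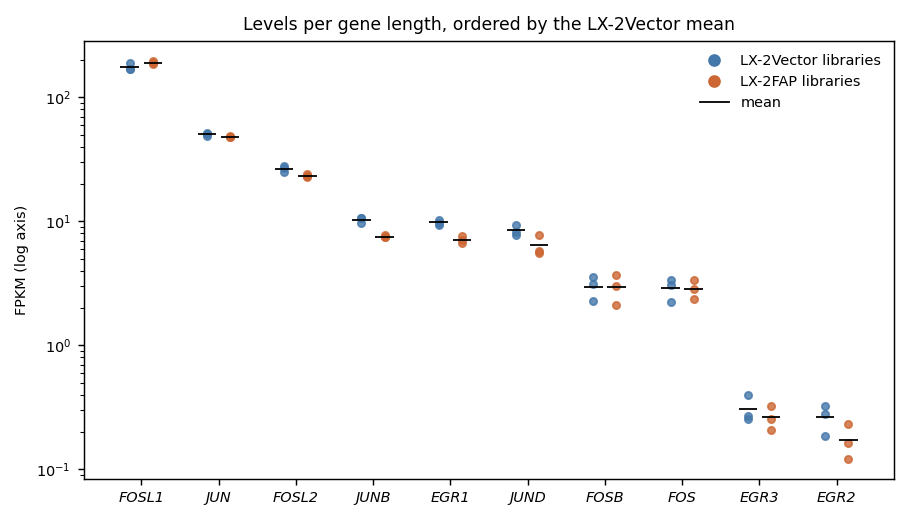
FPKM of each gene on a log axis, ordered by the LX-2Vector mean, with 1 point per library and a line at each group mean. FOSL1 lies highest at 177 FPKM in LX-2Vector, and EGR2 and EGR3 lie lowest, under 1 FPKM.

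The makeup of the FOS and JUN families is described here without a test, because the pairs were picked after their values were seen. The ratio of FOSL1 to FOSL2 in FPKM was 7.12, 6.76 and 6.12 in the LX-2Vector libraries and 7.69, 8.53 and 8.34 in the LX-2FAP libraries, with no overlap. JUN made up 72.9% ± 0.796 of the summed FPKM of the JUN genes in LX-2Vector and 77.6% ± 1.78 in LX-2FAP, with JUNB at 14.9% ± 1.149 and 12.1% ± 0.197 and JUND at 12.2% ± 1.05 and 10.3% ± 1.76. The groups did not overlap in the shares of JUN and JUNB and overlapped in that of JUND. The ratio of EGR1 to FOS was 3.06, 3.01 and 4.41 in LX-2Vector and 2.81, 2.27 and 2.48 in LX-2FAP, with no overlap. The ratios of JUNB, EGR1 and FOSL1 to JUN did not overlap either. That of FOSB to FOS overlapped (means 1.03 in LX-2Vector and 1.02 in LX-2FAP), as did that of JUND to JUN. For single genes, the groups did not overlap in CPM for 26.4% of all tested genes. These genes differ in GC content, which moved with the fold changes as given above.

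FOS and FOSB varied together across the libraries. In CPM both were highest in LX-2FAP replicate 2, then in LX-2Vector replicates 1 and 2 and LX-2FAP replicate 3, with LX-2FAP replicate 1 and LX-2Vector replicate 3 lowest. Likeness was measured as the root mean square difference of log2 CPM, centred on each gene's mean, over the 6 libraries, for the 11555 genes that averaged 100 counts or more. By this measure FOSB was the 9th nearest gene to FOS (0.0913). Within LX-2FAP the order of the libraries was the same for EGR1, FOS and FOSB, with replicate 2 highest and replicate 1 lowest, and LX-2Vector replicate 1 was the highest of its group for all 3 genes. The 5 nearest to FOS, looked up after its spread was seen, were HSPA1B (0.0494), HSPB8 (0.0608), KRT10 (0.0664), HMOX1 (0.0695) and SPHK1 (0.0701). HSPA1B and HSPB8 encode heat shock proteins and HMOX1 the stress-induced heme oxygenase, whereas KRT10 and SPHK1 encode neither kind. A link to stress was not tested. HSPA1B was at 144, 129 and 91.9 CPM in the vector line and at 101, 156 and 129.7 with FAP, though its reads cannot be split from those of its near-identical copy HSPA1A with certainty. HMOX1 stood at 384, 352 and 291 CPM against 298, 424 and 356 CPM, the same order of libraries as FOS except that LX-2FAP replicate 3 and LX-2Vector replicate 2 changed places. These likenesses rest on 6 libraries and carry no test.

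The genes nearest to EGR1 were NPIPA5 (0.0380), WBP1 (0.0532), MC1R (0.0596), LAMA3 (0.0707) and NIM1K (0.0765), with log2 fold changes from -0.45 to -0.37. LAMA3 encodes a laminin chain and MC1R the melanocortin receptor. Among the other members of the families, JUNB came 32nd (0.113), FOSL2 666th (0.164), JUN 2857th (0.208), JUND 3372nd (0.214), FOSL1 9516th (0.290), FOS 10100th (0.301) and FOSB 11081st (0.335). The measure takes in both the difference between the groups and the spread within them, so the group difference of EGR1 enters each of these distances.

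**Figure D4:**
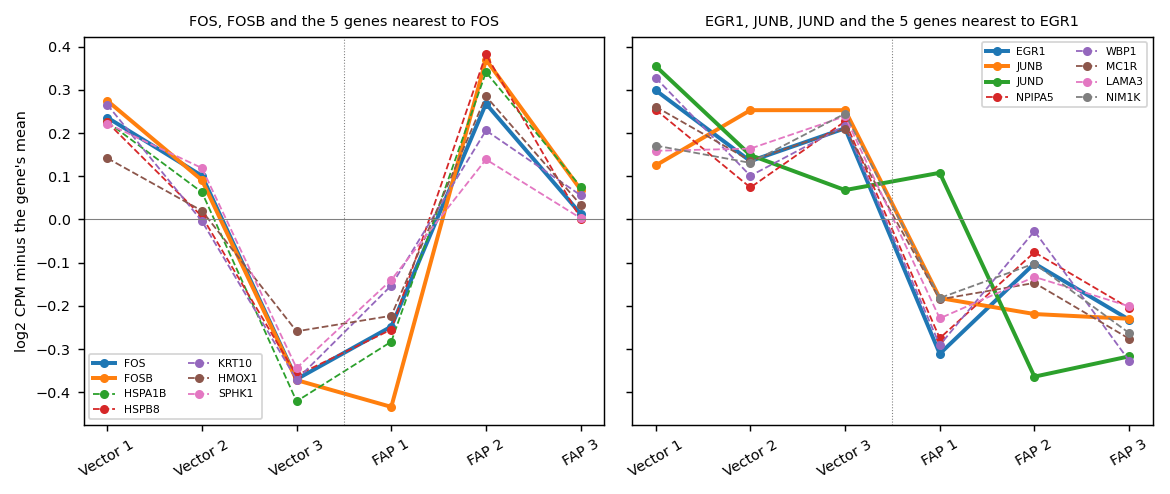
Log2 CPM minus the gene's own mean in each of the 6 libraries (x axis, in order of group and replicate), for FOS, FOSB and the 5 genes nearest to FOS (left) and for EGR1, JUNB, JUND and the 5 genes nearest to EGR1 (right). Each gene on the left is highest in LX-2FAP replicate 2 or LX-2Vector replicate 1 and lowest in LX-2Vector replicate 3 or LX-2FAP replicate 1, whereas EGR1 and JUNB lie above their mean in each LX-2Vector library and below it in each LX-2FAP library.

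Of the genes that surround EGR1 and AP-1 in the cell, 95 in 7 lists, 91 were tested and 11 were called, beside 5.29% of all tested genes. The calls rested on few libraries: 3 of the 11 (CCND1, MMP1 and MMP9) were called with every library left out in turn, and the other 8 were lost in at least 1 such fit. The count fell to 3 when LX-2FAP replicate 2 or LX-2FAP replicate 3 was left out. Upstream, the factors that turn on immediate early genes had log2 fold changes from -0.06 to 0.17. Of 8 SRF, ternary complex and CREB factors 1 was called, and the median log2 fold change was 0.00, with 4 positive and 4 negative. ELK3, a ternary complex factor that represses in its basal state, was higher, from 209 ± 9.61 to 234 ± 1.40 CPM (log2 fold change 0.17, adjusted p = 0.0339, edgeR), while SRF (-0.06, adjusted p = 0.624) and ELK1 (-0.03, adjusted p = 0.734) were not called. Of 16 kinases of the MAP kinase pathways 1 was called, with a median of 0.00, 9 positive and 7 negative. RPS6KA1, which encodes the ERK-activated kinase RSK1, was lower, from 43.2 ± 0.852 to 37.3 ± 1.41 CPM (-0.21, adjusted p = 0.0362, edgeR), and was not called with the GC trend removed (-0.11). MAPK3, which encodes the kinase ERK1, had a log2 fold change of -0.19 and was not called (adjusted p = 0.133, edgeR).

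Of 35 other immediate early genes tested, 2 were called (5 with the GC trend removed), beside 5.29% (4.37%) of all tested genes. The median log2 fold change was 0.02, with 20 positive and 15 negative (9 negative with the GC trend removed). CCN1, a secreted matricellular protein induced by YAP and serum, was higher, from 135 ± 10.1 to 160.4 ± 16.5 CPM (log2 fold change 0.24, adjusted p = 0.0456, edgeR), with overlapping groups. NFKBIA, the inhibitor of NF-kB that NF-kB itself induces, was lower, from 77.3 ± 5.00 to 57.7 ± 9.29 CPM (-0.41, adjusted p = 0.0142). Well-known members such as MYC (0.02, adjusted p = 0.849), IER2 (0.13, adjusted p = 0.387), DUSP1 (-0.09, adjusted p = 0.553), NR4A1 (-0.09, adjusted p = 0.641) and ATF3 (-0.14, adjusted p = 0.521) were not called. Of the 11 tested AP-1 partners of the ATF, BATF and MAF groups, 0 were called by edgeR, 0 by DESeq2 and 0 by limma, 0 had an unadjusted p under 0.05, and the median was 0.03. With the GC trend removed 1 of them, MAFF, was called (0.27, adjusted p = 0.0306, edgeR).

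Among 12 genes known as AP-1 targets, 5 were called (7 with the GC trend removed), beside 5.29% (4.37%) of all tested genes. The median log2 fold change was 0.11, with 9 positive, while 8590 of all 18275 tested genes were positive. This list and that of EGR1 targets below were written with earlier results of these data known. Higher were MMP1, interstitial collagenase, from 624 ± 39.5 to 923 ± 93.3 CPM (log2 fold change 0.57, adjusted p = 0.000401, edgeR), and CCND1, cyclin D1, from 739 ± 3.14 to 961 ± 44.3 CPM (0.38, adjusted p = 0.000401). The hyaluronan receptor CD44 (0.18, adjusted p = 0.00957) and stromelysin MMP3 (0.43, adjusted p = 0.0498) were higher as well. MMP9, gelatinase B, was lower, from 21.3 ± 3.29 to 11.6 ± 2.62 CPM (-0.86, adjusted p = 0.0044). The 2 directions thus occurred within the matrix proteases of this list. Among 11 genes known as EGR1 targets, with FAP left aside, the log2 fold change was negative for 10 and positive for 1, with a median of -0.13, and 7 were negative with the GC trend removed. Of these 3 were called. ICAM1, an adhesion molecule that NF-kB also induces, was lower, from 26.4 ± 2.97 to 17.9 ± 3.24 CPM (-0.55, adjusted p = 0.0122, edgeR), and so was fibronectin, FN1 (-0.19, adjusted p = 0.0498), with overlapping groups, whereas CD44, which is in both lists, was higher. TGFB1 (-0.15, adjusted p = 0.171), PDGFA (-0.04, adjusted p = 0.86) and THBS1 (0.00, adjusted p = 0.989) were not called. Whether these changes depended on EGR1 or AP-1 was not tested.

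**Figure D5:**
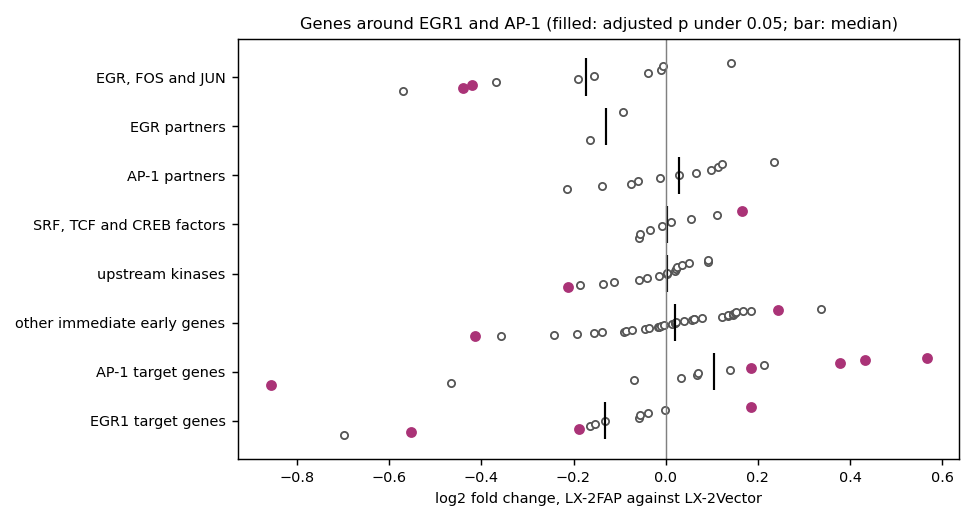
Log2 fold change, LX-2FAP against LX-2Vector, of each tested gene in the lists around EGR1 and AP-1, with 1 point per gene, filled where the adjusted p was under 0.05 (edgeR), and a bar at each list's median. The medians lie between -0.17 for the EGR, FOS and JUN genes and 0.11 for the AP-1 target genes.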

How the data were processed

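RNA of 6 libraries of LX-2 cells was sequenced (3 LX-2Vector, 3 LX-2FAP), with groups taken from the sample titles. Per the labels libraries were made from RNA depleted of ribosomal RNA, while the study's methods also name poly(A) isolation. The submitters' processing notes name HISAT2 2.0.5, featureCounts 1.5.0-p3, DESeq2 1.16.1, edgeR and the build hg18, with no role. The authors deposited whole-number read counts per gene, not normalized, and FPKM values, which the authors derived from those counts and each gene's length. No coordinates were in the table, so those given are from GENCODE release 29, matched by Ensembl ID (58337 of 60748 genes), and promoters are from RefSeq. The GO and KEGG columns were not used.

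Counts were fitted with edgeR 4.0.16 (R 4.3.3): TMM normalization, the default filter (minimum count 10, minimum total 15), 18275 genes, no covariate, quasi-likelihood test, 2-sided, Benjamini-Hochberg adjustment over all tested genes. CPM values use TMM library sizes. On simulated counts of 17966 genes for this comparison, 51% of genes changed 1.2-fold and 93% of those changed 1.5-fold were recovered, and 8.28% of calls were false. The changed genes were drawn from better-counted genes, so the recovery rates do not cover genes with as few reads as EGR2 and EGR3. No GC trend was simulated, so the false share does not cover one. P-values measure only the spread between these libraries, which may be technical, since nothing says that replicates were separate cultures. With 3 against 3 an exact permutation test cannot go below 0.1. The study names a 1.2-fold cutoff and does not say whether its P was adjusted. Alternatives were library size alone, DESeq2 size factors, no filter, at least 10 counts in every library, DESeq2 1.42.0, limma 3.58.1 (limma-trend) on log2(FPKM + 1) or log2(FPKM + 0.1), a replicate block and each library left out, and, chosen after the data were seen, removal of the trend with GC content or gene length (loess, span 0.5). Of the tested genes, 98.1% had a known GC content.

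Named genes are the 10 genes, FAP, list members where their list is described, and the 5 genes nearest to EGR1. HOOK2 and the genes nearest to FOS were named after their values were seen. The genes and lists were chosen with earlier results of these data known.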

Additional observations from a re-analysis of the deposited data

How the results depend on the processing

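FAP was called in each of the 16 alternatives, with a log2 fold change from 8.17 to 8.45 with 1 library left out. Left-out libraries moved the fold change of EGR1 from -0.49 to -0.39, JUNB from -0.46 to -0.39, EGR2 from -0.87 to -0.40, EGR3 from -0.35 to 0.0099, FOS from -0.16 to 0.14, FOSB from -0.20 to 0.19, FOSL1 from 0.11 to 0.21, FOSL2 from -0.19 to -0.11, JUN from -0.06 to -0.01 and JUND from -0.54 to -0.27. With all libraries 967 genes were called, and 26 without LX-2FAP replicate 3, 129 without replicate 2 and 1949 without replicate 1 of that group. Leaving out LX-2Vector replicate 1 gave 391 and its replicate 3 gave 395. Of the 10 genes 0 to 4 were called and 2 to 4 passed the 1.2-fold cutoff, of the related genes 3 to 20 were called, and 8 to 10 of the genes kept their place in the order of levels. EGR1 and JUNB lost their calls without LX-2FAP replicate 3 and with limma, for EGR1 -0.41 (adjusted p = 0.112) with a pseudocount of 1 and -0.45 (0.113) with 0.1, and for JUNB -0.41 (0.0949) and -0.45 (0.0922). JUNB also lost its call with the GC trend removed, at -0.25 (adjusted p = 0.0831, edgeR). Limma called 2 genes in all at either pseudocount, with 0 of the 10 and 0 of the related genes. With no filter, 1606 genes, 5 of the 10 and 19 related genes were called, among them FOSL1 (0.14, adjusted p = 0.0267, edgeR), FOSL2 (-0.16, 0.0213) and JUND (-0.37, 0.00281). With library size alone FOSL2 was called (-0.18, adjusted p = 0.0354, edgeR). With the GC trend removed FOSL1 was called (0.27, adjusted p = 0.00603, edgeR). With the gene length trend removed 1728 genes were called, FOSL1 among them (0.18, adjusted p = 0.0321, edgeR). The sign changed for FOS with DESeq2 size factors (0.0017), the GC trend removed (0.0597), the length trend removed (0.0374) and DESeq2 (0.0128), for FOSB with the GC trend removed (0.10), the length trend removed (0.0328) and DESeq2 (0.0209), and for JUN with the GC (0.0638) and the length trend removed (0.0045). The cause was not tested. The replicate numbers did not pair the libraries (correlations of deviations -0.04, 0.04 and -0.01). With the replicate block 3 of the 10 genes were called: EGR1 (-0.44, adjusted p = 0.011, edgeR), JUNB (-0.42, 0.015) and JUND (-0.37, 0.0289). EGR2 had no fit with at least 10 counts in every library, and EGR2 and EGR3 had no adjusted p in DESeq2. Depth limits EGR2 and EGR3, with 9 to 36 reads a library.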
